A study of Saccharomyces cerevisiae S288C with 4 samples.

Results

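The nuclear genes for the subunits of the yeast mitochondrial ATP synthase were followed here. They are the 10 genes *ATP1*, *ATP2*, *ATP3*, *ATP4*, *ATP5*, *ATP7*, *ATP14*, *ATP15*, *ATP16* and *ATP20*, taken by symbol from a table of 6396 genes. All 10 had a row in that table and passed the filter on low counts. Their transcripts were measured by RNA sequencing of total RNA in WT and *tho2Δ* cells of budding yeast, grown to mid-log phase in the rich glucose medium YPD at 30 °C. WT was BY4741 and *tho2Δ* was FY254, a deletion strain of the EUROSCARF collection in which *KanMX4* replaces *THO2*. Both strains are *MATa* and carry deletions at *URA3*, *LEU2*, *HIS3* and *MET15*. There were 2 libraries per strain, labelled 3 and 4 and made from duplicate RNA samples, and whether these came from separate cultures is not stated, so the p-values below measure the spread between these libraries, which may be technical.

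ATP synthase is the enzyme of the inner mitochondrial membrane that makes ATP from ADP and phosphate with the proton gradient built by the respiratory chain. A catalytic head sits in the matrix, a central stalk turns within it, a ring in the membrane carries the protons, and a peripheral stalk keeps the head from turning along. In yeast a few membrane subunits are encoded by mitochondrial DNA and all the others by nuclear genes, and yeast growing on glucose ferments and holds its respiratory genes low. Tho2 is a subunit of the THO complex, which acts in transcription elongation and in packing new mRNA for export.

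The transcripts of the ATP synthase were higher in *tho2Δ* than in WT. Tested over all genes with edgeR (quasi-likelihood, Benjamini-Hochberg), 8 of the 10 genes rose at an adjusted p under 0.05, where 18.8% of the 5890 genes tested were called higher, and 0 fell, where 19.1% were called lower. At an unadjusted p under 0.05 edgeR had 9 of them higher, where 25.4% of all genes were, and 0 lower, where 24.7% were. At an adjusted p under 0.05, 0 fell with DESeq2, where 19.8% of all genes were called lower, or with limma on log2(TPM + 1) and log2(TPM + 0.1), where 6.05% and 5.82% were. In RNA from whole cultures, a larger share of cells with a transcript and more of it per cell cannot be told apart. The median log2 fold change of the 10 genes was 0.87, or 1.83-fold, against 0.01 over all genes tested. *ATP20* and *ATP7* rose by 2.67-fold and 2.05-fold. *ATP1* and *ATP2*, which encode the catalytic head, had 1.37-fold and 1.44-fold higher levels and did not pass the test.

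Sequences upstream of the genes were read because the letters CCAAT, the core of the element bound by the Hap2/3/4/5 complex, an activator of respiratory genes, stood before every member. Within 500 bases before the start codon and on either strand, CCAAT was found at all 10 genes and at 62.4% of 6000 protein-coding genes. Between 100 and 300 bases, a window chosen after the positions were seen, it was found at all 10 genes and at 31.4% of all. The longer form ACCAATNA, which contains CCAAT, was found at 5 of the 10 genes and at 8.6% of all. These 5 matches lay on the coding strand, at 196 bases before the start codon for *ATP3*, 190 for *ATP4*, 178 for *ATP7*, 198 for *ATP14* and 134 for *ATP15*, counted from the first base of the match. For the other 5 genes a CCAAT match in the same window is shown, at 267 bases for *ATP1*, 185 for *ATP2*, 163 for *ATP5*, 164 for *ATP16* and 169 for *ATP20*. The match shown for *ATP2* lies inside the coding sequence of the neighbouring gene *YJR120W*, which ends 130 bases before *ATP2*. Each window has 30 bases from RefSeq's R64 genome, is written along the coding strand, and has the match in capitals, which reads ATTGG where the match is on the other strand (*ATP1* and *ATP20*).
ATP3, chrII:315368-315397, plus strand: cgtgatggagaACCAATGAgcggcgagtaa
ATP4, chrXVI:408916-408945, minus strand: atcaatattgaACCAATCAcgacgcttttt
ATP7, chrXI:408149-408178, minus strand: gtaaaagatacACCAATTAccacttgctgc
ATP14, chrXII:722553-722582, minus strand: gccatacacgaACCAATTAtgcatcataaa
ATP15, chrXVI:29934-29963, plus strand: cttttatacgaACCAATGAaatttgatcct
ATP1, chrII:36774-36803, plus strand: atagctctttcaATTGGtcttattagattg
ATP2, chrX:647410-647439, plus strand: ctccaggacaggCCAATtggataaattttg
ATP5, chrIV:1058960-1058989, minus strand: caatttcaaacgCCAATtgttaactttgtg
ATP16, chrIV:442853-442882, plus strand: atagatgcccagCCAATcaaagcgcattat
ATP20, chrXVI:599689-599718, plus strand: ttcttattcctgATTGGctgaaagaaaata

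A match describes letters and is not a shown binding site. The 5 genes with ACCAATNA all rose, by 0.72 to 1.06 on the log2 scale with a median of 0.89. Of the 5 genes without it 3 rose, and their log2 fold changes ran from 0.45 to 1.42 with a median of 0.52, so the ranges overlapped. AGGGG, the stress response element of Msn2 and Msn4, was found on either strand at 5 of the 10 genes (*ATP1*, *ATP2*, *ATP14*, *ATP15* and *ATP16*) and at 34.1% of all. TGTANATA, the letters bound by the mRNA-binding protein Puf3, was searched on the coding strand within 200 bases after the stop codon, and was found at 1 of the 10 genes, *ATP1*, and at 14.1% of 6002 genes. GTAG and TGTA, letters of the RNA bound by the termination factor Nrd1, had medians of 1.46 and 1.73 matches per kilobase of coding sequence over the 10 genes and 1.79 and 2.62 over all protein-coding genes.

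The libraries held 31417222 to 36989697 counts, so that 3 counts were worth 0.0692 to 0.128 CPM (counts scaled to a common library size with edgeR's TMM factors). *THO2* had 4011 and 2457 counts in WT and 1 count in each *tho2Δ* library. Reads of *URA3* and *MET17* (the symbol given in the table for *MET15*) were 0 in all 4 libraries. *HIS3*, where the deletion is partial, had 841 and 981 counts in WT and 586 and 674 in *tho2Δ* (log2 fold change -1.09 ± 0.25, edgeR adjusted p = 0.0239). The *MATa* markers *STE2*, *MFA1*, *MFA2* and *BAR1* were on at 18.5 CPM or more. Markers of the other mating type were low but not at 0: *STE3* had 2.42 to 5.12 CPM, *MF(ALPHA)1* 0.476 to 1.45 and *MF(ALPHA)2* 0.171 to 1.68. *LEU2*, deleted in both strains, had 0 counts in WT-3 but 2512 in WT-4, 511 in *tho2Δ*-3 and 4276 in *tho2Δ*-4, which goes against the stated genotype in 3 libraries. WT-4 stood apart from WT-3: its TMM factor was 0.723 against 1.003 to 1.18 in the others, its 10 most abundant genes held 31.4% of the counts against 24.2% to 26.9%, and the median absolute log2 difference between the WT libraries was 0.24 against 0.09 between the *tho2Δ* libraries. The part of these differences in the results below was not tested, and the values without each library are given with them.

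Levels of the 10 genes can be set beside each other in TPM, which the deposited table scales by length. For these genes that length was the coding length, without untranslated ends, so the comparison between genes is approximate. *ATP1* was the most abundant in both WT libraries, at 260 TPM in WT-3 and 235 TPM in WT-4. In *tho2Δ* it was *ATP7*, at 480 TPM in both libraries, but *ATP1*, at 419 TPM in *tho2Δ*-3, was nearly level with it in *tho2Δ*-4, at 479 TPM. *ATP20* was the least abundant in WT, with 83.3 TPM and 25.5 TPM. In the order of their mean TPM in WT, *ATP1*, *ATP5*, *ATP16*, *ATP7*, *ATP15*, *ATP3*, *ATP4*, *ATP2*, *ATP14* and *ATP20*, the libraries of 7 of the 9 neighbouring pairs overlapped, and the pairs that did not were *ATP3* with *ATP4* and *ATP14* with *ATP20*. In *tho2Δ* the order was *ATP7*, *ATP1*, *ATP16*, *ATP5*, *ATP15*, *ATP3*, *ATP4*, *ATP14*, *ATP20* and *ATP2*, and 2 of the 9 pairs overlapped, *ATP1* with *ATP16* and *ATP20* with *ATP2*. The 10 genes summed to 1708 TPM in WT-3, 1201 TPM in WT-4, 3240 TPM in *tho2Δ*-3 and 3343 TPM in *tho2Δ*-4. Both *tho2Δ* libraries were above both WT libraries for all 10 genes, on the TPM scale, where this held for 57.7% of all genes tested, and on the CPM scale, where it held for 38.6%.

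**Figure D1:**
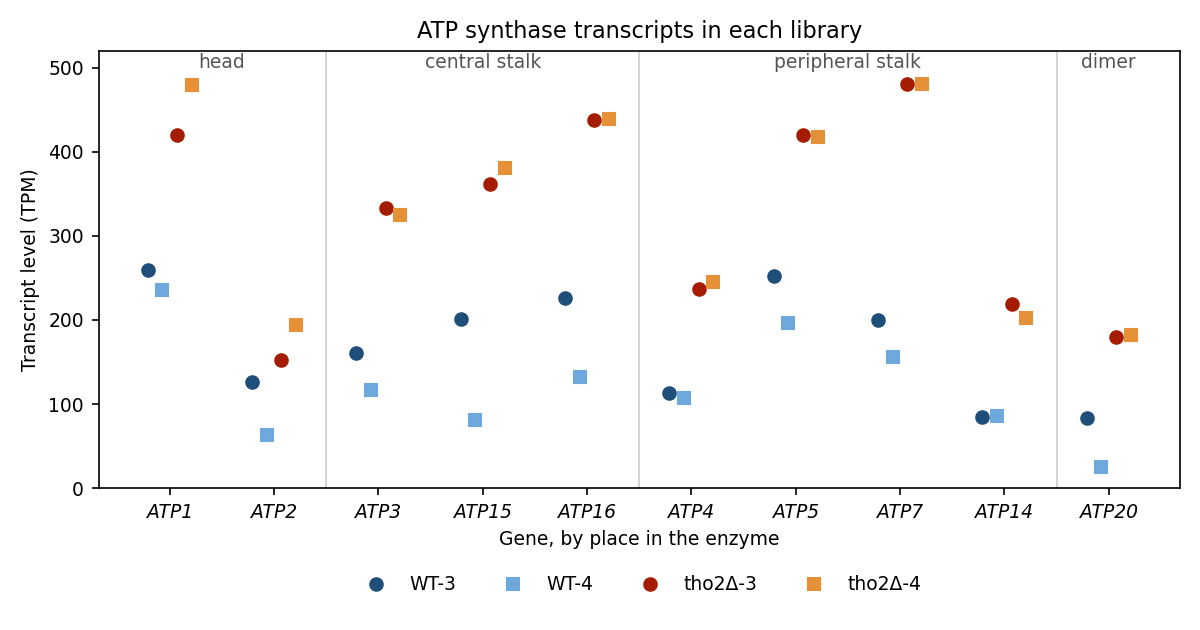
Transcript level in TPM (vertical axis) of the 10 genes in each of the 4 libraries, with 1 point per library (circles for libraries 3, squares for libraries 4; blues WT, red and orange *tho2Δ*). Every *tho2Δ* point lies above both WT points of its gene, and WT-4 lies farthest below WT-3 for *ATP15* (81.2 against 200.7 TPM) and *ATP16* (133 against 226 TPM).

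The catalytic head is built from alternating copies of subunits α and β. *ATP1*, for subunit α, had 493 CPM in WT-3, 595 in WT-4, 700 in *tho2Δ*-3 and 789 in *tho2Δ*-4. The strains did not overlap, but the libraries of each strain lay nearly as far from each other as the nearest libraries of the 2 strains. Its log2 fold change was 0.45 ± 0.17 (SE, n = 2 libraries per strain, as for all values below; edgeR adjusted p = 0.0857). *ATP2*, for subunit β, which carries the catalytic sites, had 224 and 150 CPM in WT and 239 and 299 CPM in *tho2Δ*, again in the order of libraries 3 and 4. WT-4 was low, and WT-3 was close to *tho2Δ*-3. The log2 fold change was 0.52 ± 0.23 (edgeR adjusted p = 0.121). It was 0.82 without WT-3 (edgeR adjusted p = 0.00197) and 0.25 without WT-4 (edgeR adjusted p = 0.16). For *ATP1* the values were 0.30 without WT-3 (edgeR adjusted p = 0.0256) and 0.59 without WT-4 (edgeR adjusted p = 0.00264). With the counts scaled by library totals, *ATP1* passed as well (edgeR adjusted p = 0.0123) and *ATP2* did not (edgeR adjusted p = 0.0716).

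All 3 genes of the central stalk rose. *ATP3*, for subunit γ, the shaft that turns inside the head, had 175 and 169 CPM in WT and 317 and 305 CPM in *tho2Δ*. The libraries of each strain lay close together and the strains far apart, with a log2 fold change of 0.86 ± 0.11 (edgeR adjusted p = 0.00407). *ATP16*, for subunit δ at the foot of the shaft, had 127 and 98.9 CPM in WT and 215 and 213 CPM in *tho2Δ*. WT-4 was below WT-3 and both were below *tho2Δ*, and the log2 fold change was 0.92 ± 0.15 (edgeR adjusted p = 0.00752). *ATP15*, for subunit ε, which joins the foot to the ring, had 44.0 and 23.7 CPM in WT and 69.7 and 72.2 CPM in *tho2Δ*. WT-4 was far below WT-3, and the *tho2Δ* libraries were alike and above both. Its log2 fold change of 1.06 ± 0.29 (edgeR adjusted p = 0.0368) became 1.56 without WT-3 and 0.68 without WT-4.

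The 4 genes of the peripheral stalk rose too. *ATP4*, for subunit b, the membrane-anchored arm, had 96.1 and 121 CPM in WT and 178 and 181 CPM in *tho2Δ*. *ATP5*, for the subunit that ties the arm to the top of the head (OSCP), had 187 and 194 CPM in WT and 273 and 268 CPM in *tho2Δ*. In both genes the strains were well apart, and in *ATP4* the WT libraries differed more than the *tho2Δ* libraries. Log2 fold changes were 0.72 ± 0.14 for *ATP4* (edgeR adjusted p = 0.0138) and 0.51 ± 0.11 for *ATP5* (edgeR adjusted p = 0.0172), the smallest change among the 8 genes that rose. *ATP7*, for subunit d, had 122 and 127 CPM in WT and 257 and 253 CPM in *tho2Δ*. Its libraries lay close together within each strain, and it rose by 1.04 ± 0.10 on the log2 scale (edgeR adjusted p = 0.00233). *ATP14*, for subunit h, had 37.04 and 49.5 CPM in WT and 83.9 and 76.1 CPM in *tho2Δ*. Here WT-4 was above WT-3, and the log2 fold change was 0.89 ± 0.17 (edgeR adjusted p = 0.0125).

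*ATP20* encodes subunit g, a small membrane subunit through which enzymes pair into dimers that shape the cristae. It had 33.6 and 13.7 CPM in WT and 63.7 and 63.5 CPM in *tho2Δ*. The *tho2Δ* libraries were alike, and WT-4 was far below WT-3. Its log2 fold change of 1.42 ± 0.40 (edgeR adjusted p = 0.0405) was the largest of the 10 genes and had the largest error. Without WT-3 it was 2.18 and without WT-4 it was 0.91, and on either side the gene passed.

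**Figure D2:**
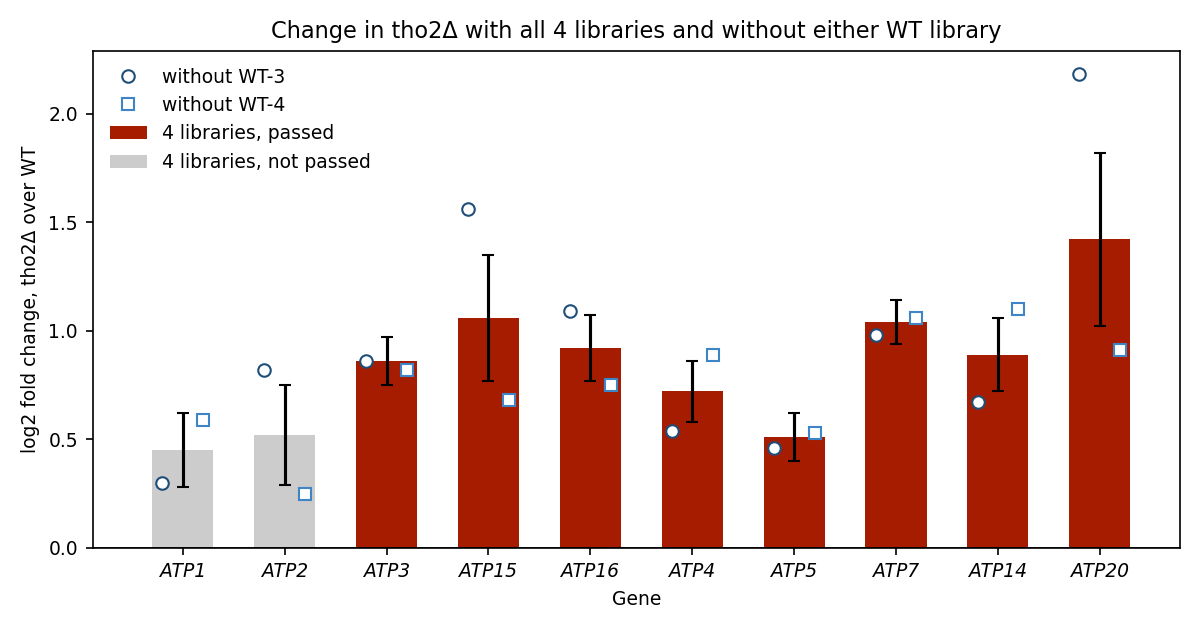
Log2 fold change of *tho2Δ* over WT (vertical axis) for the 10 genes, with bars for the fit of all 4 libraries (red, passed; grey, not passed), error bars for the SE, and open symbols for the fits without WT-3 (circles) or without WT-4 (squares). *ATP3*, *ATP5* and *ATP7* hardly moved with the WT library used, while *ATP20* ran from 0.91 to 2.18 and *ATP15* from 0.68 to 1.56.

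The count of genes called depended on the *tho2Δ* pair. Without WT-3 all 10 genes passed, where 30.1% of genes tested were called higher, and without WT-4 9 passed, where 26.7% were, with *ATP2* as the exception. Without *tho2Δ*-3, where 5.23% of genes were called higher, or without *tho2Δ*-4, where 5.17% were, only *ATP7* passed (edgeR adjusted p = 0.038 and 0.0392). In these fits the lone library is assumed to vary like the pair of the other strain, and the WT pair is the more variable. The median log2 fold change of the 10 genes was 0.82 and 0.91 in them, against 0.87 with all 4 libraries, and 0.84 and 0.79 without WT-3 and WT-4.

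Scaling moved all genes together. With counts scaled by library totals the median over all genes was 0.45 and that over the 10 genes 1.32, and the difference between these medians was 0.87, against 0.86 with TMM. Over the 15 alternatives the difference ran from 0.78, without WT-4, to 0.94, with an offset for GC content and length. All 10 log2 fold changes were above 0 in every one of these alternatives.

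Shares of the 10 genes in their own summed TPM do not depend on that scaling. They are given as a description, and their differences were not tested. *ATP1* made up 15.2% and 19.6% in WT and 12.9% and 14.3% in *tho2Δ*. *ATP5* made up 14.8% and 16.4% in WT and 13.0% and 12.5% in *tho2Δ*. Both shares were lower in each *tho2Δ* library than in either WT library. *ATP7* went the other way, with 11.7% and 13.0% in WT and 14.8% and 14.4% in *tho2Δ*, as did *ATP20*, with 4.88% and 2.13% in WT and 5.54% and 5.43% in *tho2Δ*. For the other 6 genes the strains overlapped. With only 2 libraries per strain, shares can separate in this way without a change of composition. The ratio of *ATP1* to *ATP2*, whose proteins stand in equal number in the head, was 2.06 and 3.71 in WT and 2.74 and 2.48 in *tho2Δ* on the TPM scale, and here too the strains overlapped.

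*ATP15* and *ATP20* have short coding sequences of 189 and 348 bases, while *ATP1* has 1638, the longest of the 10. Over the 227 genes tested with up to 300 coding bases, the median log2 ratio of WT-4 to WT-3 was -0.37. Over the 542 genes of 301 to 500 bases the median was -0.05, and in the longer classes it was between -0.05 and 0.03. For the log2 fold change of *tho2Δ* over WT, the median was 0.20 up to 300 bases and between -0.08 and 0.08 in the classes above. *ATP15*, with -0.89, and *ATP20*, with -1.29, were lower in WT-4 than their length classes. Only 4.4% and 1.91% of all genes had a WT-4 to WT-3 ratio as low or lower. *ATP14*, with 375 bases, had a ratio of 0.42, above its class, and *ATP2*, with 1536 bases, one of -0.58, below its class. The part of length in the members' values was not tested apart from the offset given here. Between the *tho2Δ* libraries the 10 genes differed by -0.14 to 0.32. With an offset for GC content and length, *ATP20* had a log2 fold change of 1.17 (edgeR adjusted p = 0.035) and *ATP15* one of 0.98 (edgeR adjusted p = 0.0166), and 8 of the 10 genes passed, where 21.3% of all genes were called higher.

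**Figure D3:**
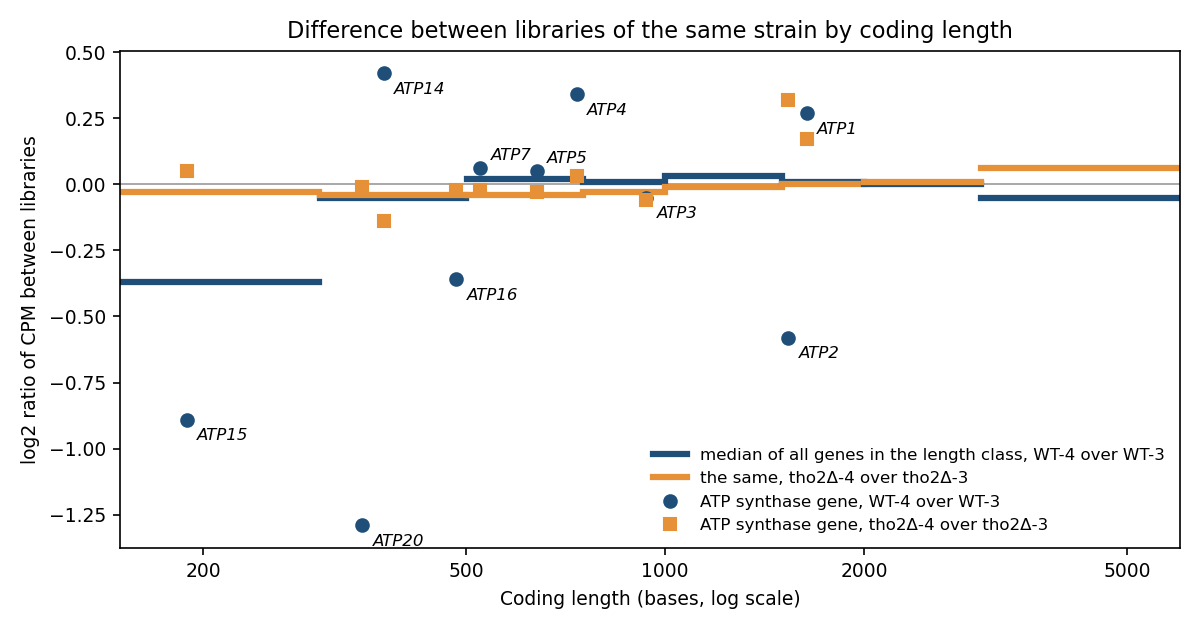
Log2 ratio of CPM between libraries of the same strain (vertical axis) against coding length in bases (horizontal axis, log scale), with points for the 10 genes (blue circles, WT-4 over WT-3; orange squares, *tho2Δ*-4 over *tho2Δ*-3) and horizontal bars for the median of all protein-coding genes tested in a length class. The blue bar of the class up to 300 bases is at -0.37 and the others near 0, and *ATP15* and *ATP20* lie at -0.89 and -1.29.

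Positions here are those of the coding sequence in R64. *ATP1* lies at chrII:37053-38690, *ATP3* at chrII:315575-316510, *ATP2* at chrX:647607-649142, *ATP7* at chrXI:407465-407989 and *ATP14* at chrXII:721999-722373. *ATP5* and *ATP16* lie at chrIV:1058176-1058814 and chrIV:443029-443511. *ATP15*, *ATP20* and *ATP4* lie at chrXVI:30079-30267, chrXVI:599870-600217 and chrXVI:408010-408744. All 10 have a single exon, none overlaps another annotated gene, and none has a near-identical copy elsewhere in the genome. Of the 20 genes next to them, 18 were tested. Of these 5 rose and 6 fell, where 18.8% of all genes tested were called higher and 19.1% lower. The median log2 fold change of these neighbours was 0.15, against 0.87 over the members. *YJR120W*, which ends 130 bases before *ATP2* on the same strand and is singled out after its values were seen, had 3.42 and 3.16 CPM in WT and 12.4 and 5.92 CPM in *tho2Δ* (log2 fold change 1.47 ± 0.38, edgeR adjusted p = 0.0331). It had 0.85 without *tho2Δ*-3 and did not pass (edgeR adjusted p = 0.223), and 1.91 without *tho2Δ*-4.

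The other nuclear subunits, small proteins of the membrane part, had the same median log2 fold change, 0.87, and 2 of 4 rose by edgeR. At an unadjusted p under 0.05 all 4 were higher, and 0 were lower at either threshold by edgeR, DESeq2 or limma. *ATP19*, for subunit k, had 14.9 and 8.88 CPM in WT and 25.9 and 23.6 CPM in *tho2Δ*, and rose by 1.05 ± 0.25 (log2; edgeR adjusted p = 0.0267). *TIM11*, for subunit e, the partner of subunit g in dimers, had 20.9 and 16.1 CPM in WT and 33.5 and 34.2 CPM in *tho2Δ*, and rose by 0.87 ± 0.16 (log2; edgeR adjusted p = 0.0112). In both genes the strains were apart and WT-4 was the lowest library. *ATP17* (subunit f) had a log2 fold change of 0.87 ± 0.28 (edgeR adjusted p = 0.0607) and *ATP18* (subunit i/j) one of 0.53 ± 0.18 (edgeR adjusted p = 0.0652), both without passing. With DESeq2, or without either WT library, all 4 passed, and without either *tho2Δ* library 0 did. The mitochondrially encoded subunits *ATP6*, *ATP8* and *OLI1* were not analysed here.

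Regulators of the enzyme had a median of 0.75, and 2 of 3 rose by edgeR. At an unadjusted p under 0.05 all 3 were higher, and 0 were lower at either threshold by edgeR, DESeq2 or limma. *INH1*, the inhibitor that stops the enzyme from running backwards and splitting ATP, had 43.3 and 63.2 CPM in WT and 78.7 and 74.3 CPM in *tho2Δ*. WT-4 came close to the *tho2Δ* libraries, and its log2 fold change (0.53 ± 0.19) missed the threshold (edgeR adjusted p = 0.083). *STF1*, a relative of the inhibitor, rose from 8.03 and 11.1 CPM to 17.0 and 20.0 CPM, or by 0.97 ± 0.20 (log2; edgeR adjusted p = 0.0162). *STF2*, a factor that stabilizes the inhibited enzyme, rose from 42.5 and 53.0 CPM to 79.0 and 81.2 CPM, or by 0.75 ± 0.14 (log2; edgeR adjusted p = 0.0119). Neither passed without *tho2Δ*-3 or without *tho2Δ*-4.

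Of 14 factors for assembly of the enzyme and for expression of its mitochondrial genes, 4 rose by edgeR, where 18.8% of all genes did, and the median log2 fold change was 0.34. At an unadjusted p under 0.05 edgeR had 5 higher, and 0 were lower at either threshold by edgeR, DESeq2 or limma. *ATP22*, needed to translate the *ATP6* message, rose by 0.76 ± 0.10 (edgeR adjusted p = 0.00503). The other 3 act on the *ATP6* and *ATP8* messages: *NCA2* rose by 0.70 ± 0.12 (edgeR adjusted p = 0.01), *NCA3* by 0.74 ± 0.16 (edgeR adjusted p = 0.0198) and *AEP3* by 0.52 ± 0.15 (edgeR adjusted p = 0.0472) on the log2 scale. The call of *AEP3* was lost with DESeq2 (adjusted p = 0.0627). None of the 14 passed without *tho2Δ*-3 or without *tho2Δ*-4, and without WT-3 *ATP11*, a chaperone of subunit β, was called lower (log2 fold change -0.66, against -0.35 with all 4 libraries).

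Carriers that bring ADP and phosphate to the enzyme did not all move in the same direction. Of 5 genes 2 rose, where 18.8% of all genes were called higher, and 1 fell, where 19.1% were called lower. Those that rose carry phosphate, and the gene that fell is for an ADP/ATP carrier. The other ADP/ATP carriers had log2 fold changes above 0, so the direction did not follow what is carried. At an unadjusted p under 0.05 edgeR had 4 of the 5 higher, where 25.4% of all genes were, and 1 lower, where 24.7% were. *PIC2*, a carrier of phosphate and copper, rose by 1.38 ± 0.11 (log2; edgeR adjusted p = 0.00183), from 52.5 and 58.6 CPM to 144 and 145 CPM. *AAC3*, the ADP/ATP carrier of cells short of oxygen, fell from 28.2 and 38.6 CPM to 7.50 and 8.55 CPM, a log2 fold change of -2.05 ± 0.19 (edgeR adjusted p = 0.00213). *PET9*, the main ADP/ATP carrier, stood at 0.48 ± 0.15 on the log2 scale and missed the threshold (edgeR adjusted p = 0.0525). With an offset for GC content and length *PET9* had 0.61 and passed (edgeR adjusted p = 0.0173). *MIR1*, the main phosphate carrier, passed with 0.51 ± 0.15 (log2; edgeR adjusted p = 0.0417), but with an offset for GC content and length its value was -0.01 (edgeR adjusted p = 0.944).

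The respiratory chain, which builds the proton gradient, was also higher. All 4 genes of complex II, succinate dehydrogenase, rose, with a median log2 fold change of 1.35. The iron-sulfur subunit *SDH2* (1.40 ± 0.15, edgeR adjusted p = 0.00283) and the flavoprotein *SDH1* (1.40 ± 0.16, edgeR adjusted p = 0.0031) had the highest values. The membrane anchor *SDH3* had the lowest, 0.86. With an offset for GC content and length *SDH1* had 0.79 (edgeR adjusted p = 0.0473), the lowest of the 4, and *SDH3* had 1.01. *SDH4*, the other anchor, rose from 34.4 and 23.4 CPM to 72.4 and 70.3 CPM (edgeR adjusted p = 0.00687). All 9 genes of complex III, the cytochrome bc1 complex, rose, with a median of 1.41. The cytochrome c1 gene *CYT1* had 1.81 ± 0.11 and the Rieske iron-sulfur gene *RIP1* 1.51 ± 0.10 (edgeR adjusted p = 0.00132 for both), and the small subunits *QCR7* and *QCR9* had 1.23 and 1.53. Of 9 nuclear genes of complex IV, cytochrome c oxidase, 6 rose, with a median of 0.80 and with *COX12* at 1.22 ± 0.12 (edgeR adjusted p = 0.00231), *COX4* at 1.40, *COX13* at 0.80 and *COX8* at 0.75. In none of these complexes did a gene fall, at an adjusted or an unadjusted p under 0.05 by edgeR, DESeq2 or limma. Without 1 of the *tho2Δ* libraries 3 or 2 genes of complex II, 6 of complex III and 2 or 3 of complex IV still passed. Whether the ATP synthase differs from these complexes in the size of its change was not tested.

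The vacuolar H+-ATPase, a related rotary enzyme that spends ATP to pump protons into the vacuole, is shown for comparison. By edgeR 0 of its 15 genes rose, also at an unadjusted p under 0.05 and with DESeq2 or limma, and 5 fell. Of all genes, edgeR called 18.8% higher and 19.1% lower. The median log2 fold change was -0.37, against 0.01 over all genes tested. It was 0.05 with counts scaled by library totals and 0.04 in TPM, where none fell at an adjusted p under 0.05. On these scales the medians over all genes were 0.45 and 0.39 to 0.42. *VMA8*, for a subunit of its central stalk, had a log2 fold change of -0.53 ± 0.10 (edgeR adjusted p = 0.0147), *VMA6*, for the stalk's cap on the ring, -0.82 ± 0.17 (edgeR adjusted p = 0.0158), and *VMA9* and *VMA10* -0.54 and -1.18. The median of the 15 genes was -0.54 without WT-3, -0.34 without WT-4, -0.38 without *tho2Δ*-3 and -0.43 without *tho2Δ*-4. Single genes moved more: they ran from -1.18 to 0.02 with all 4 libraries. Without WT-3 they ran from -1.59 to 0.38, and without WT-4 from -0.67 to 0.06.

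Genes of mitochondrial import and folding, whose products bring the nuclear subunits into the organelle, were counted in the same way. Of 11 genes 0 rose by edgeR, also at an unadjusted p under 0.05 and with DESeq2, and 3 fell. Of all genes, edgeR called 18.8% higher and 19.1% lower. The median of the 11 genes was -0.14, against 0.01 over all genes tested. It became 0.30 with library totals and 0.27 in TPM, where limma called 1 higher and 0 lower. On these scales the medians over all genes were 0.45 and 0.39 to 0.42. *TOM20*, a receptor of the outer membrane, had -0.78 ± 0.12 (log2; edgeR adjusted p = 0.00616) and *MGE1*, a partner of the matrix chaperone Ssc1, -0.46 ± 0.10 (log2; edgeR adjusted p = 0.0173). *MAS1*, of the peptidase that removes import signals, had -0.43 (edgeR adjusted p = 0.0497) and *TIM23*, of the inner membrane channel, -0.41 (edgeR adjusted p = 0.0585), and these were 0.04 and 0.05 with library totals, where *MGE1* was at -0.01 (edgeR adjusted p = 0.972). The call of *MAS1* was also lost with DESeq2 (adjusted p = 0.0524), and 0 of the 11 genes passed without *tho2Δ*-3 or without *tho2Δ*-4.

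**Figure D4:**
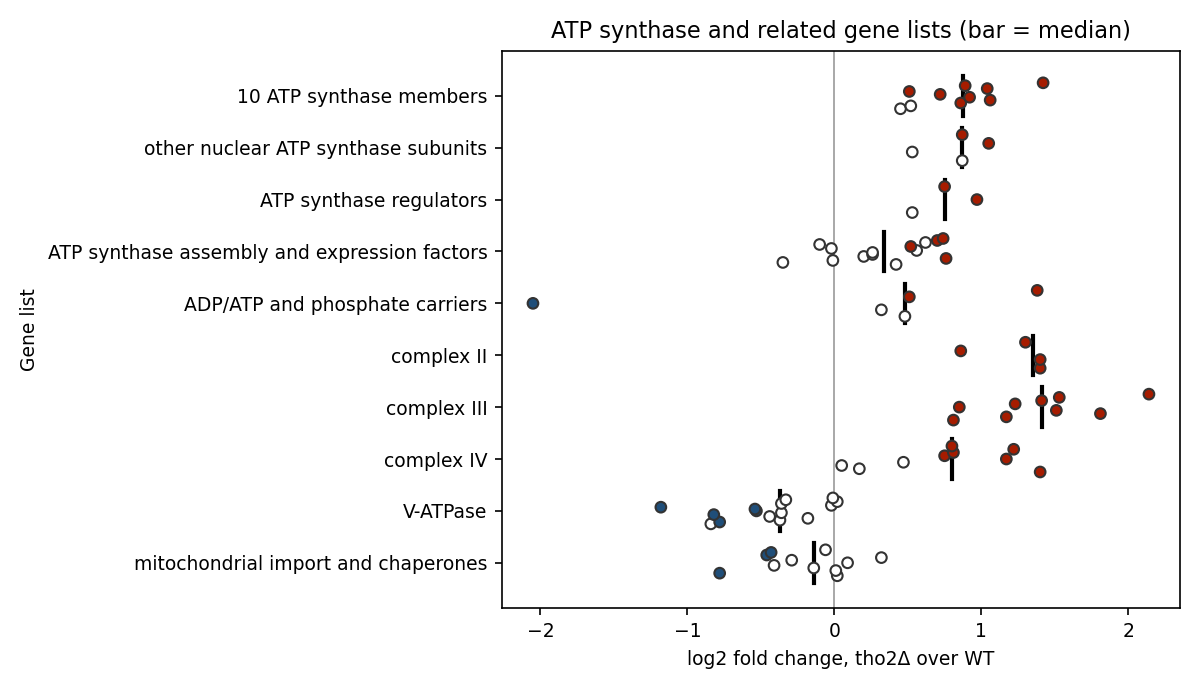
Log2 fold change of *tho2Δ* over WT (horizontal axis) for each gene of the ATP synthase and of 9 related lists, with 1 point per gene (red, called higher; blue, called lower; white, not passed) and a black bar at the median of each list. The medians of the ATP synthase members (0.87), complex II (1.35), complex III (1.41) and complex IV (0.80) lie to the right. Those of the V-ATPase and of import lie at -0.37 and -0.14. With library totals, which are not drawn, the V-ATPase and import had 0.05 and 0.30, and the median over all genes was 0.45. On that scale the members and complexes II, III and IV had 1.32, 1.79, 1.81 and 1.25.

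Transcripts of the factors that bind CCAAT were measured as well. Of 6 genes, the Hap factors and *PUF3*, 0 rose by edgeR or DESeq2, 1 rose at an unadjusted p under 0.05 by either, and 1 rose with limma on TPM. By edgeR and by DESeq2 1 fell, at an adjusted or an unadjusted p under 0.05, and 0 fell with limma. Of all genes, edgeR called 18.8% higher and 19.1% lower, and 25.4% and 24.7% at an unadjusted p under 0.05. So few genes cannot be told apart from these shares. *HAP4*, the activating subunit of the complex, had 93.9 and 120 CPM in WT and 113 and 131 CPM in *tho2Δ*, so the strains overlapped on this scale (log2 fold change 0.19 ± 0.15, edgeR adjusted p = 0.359). In TPM it had 48.6 and 46.5 in WT and 66.8 and 78.1 in *tho2Δ*, which did not overlap. Both *tho2Δ* libraries were above both WT libraries in TPM for 57.7% of all genes tested. With library totals the log2 fold change of *HAP4* was 0.67 (edgeR adjusted p = 0.0533), where the median over all genes was 0.45. Without WT-4 *HAP4* was called higher (0.37, edgeR adjusted p = 0.0235), and without WT-3 it had 0.01. *HAP2*, for a DNA-binding subunit, had 0.54 ± 0.16 (log2; edgeR adjusted p = 0.0503) and *HAP3*, for another, -0.58 ± 0.29 (log2; edgeR adjusted p = 0.175). *HAP1*, an activator that senses haem and does not belong to that complex, fell by 0.57 ± 0.12 on the log2 scale (edgeR adjusted p = 0.0184), and with library totals it had -0.12 (edgeR adjusted p = 0.725).

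The median profile of the 10 genes over the 4 libraries, each gene centred on its own mean log2 CPM, was -0.33 in WT-3, -0.47 in WT-4, 0.47 in *tho2Δ*-3 and 0.42 in *tho2Δ*-4. Among the members, *ATP3* lay nearest to it, with a root mean square difference of 0.0405, and *ATP20* farthest, with 0.544. Of 4611 other genes with a mean of at least 10 CPM, those nearest were *IDH1*, a subunit of the isocitrate dehydrogenase of the citric acid cycle (0.0225), *MDM32*, of the inner mitochondrial membrane (0.0246), *NUR1*, of the nuclear rim (0.0328), *COX9*, of complex IV (0.0335), and *KAR3*, a kinesin (0.0343). Over only 4 libraries such likeness is a description, and these genes rose by 0.81 to 0.86 on the log2 scale.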

How the data were processed

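Total RNA of WT (BY4741) and *tho2Δ* (FY254) yeast was sequenced in 4 libraries. The labels name an RNeasy kit and the study's methods a hot phenol extraction. The authors deposited 1 table with whole-number read counts, TPM and FPKM per gene. FPKM was not used. HISAT2 2.1.0, StringTie 1.3.4d, Trimmomatic and build R64 are named in the submitters' processing notes. Neither the strand setting nor the annotation used is given there. Of 6396 genes, 5995 matched the reference by locus tag and 47 by symbol. The 10 members and all lists were chosen with earlier results of these data known, so no list was tested as a set.

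Counts were tested with edgeR 4.0.16 (quasi-likelihood, TMM, edgeR's filter, genotype alone, Benjamini-Hochberg at 0.05, 5890 genes). The SE is the absolute log2 fold change over the square root of F. Named are all members, other subunits, regulators, up to 4 genes per further list with the smallest p, and the 5 nearest profiles. Alternatives (15) were DESeq2 1.42.0 or limma 3.58.1 (log2 of TPM plus 1 or 0.1, mean TPM of at least 1), 2 scalings, 3 filters, a replicate block, an offset for GC content and length (loess, span 0.75), both together, and each library left out. Copies were searched with BLAST 2.17.0 (95% identity over 50% of the length). The scripts were tested on simulated data.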

Additional observations from a re-analysis of the deposited data

How the results depend on the processing

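With all 4 libraries, 1110 genes were called higher and 1127 lower. Scaling by library totals left 303 lower, and limma on log2(TPM + 1) and log2(TPM + 0.1) left 348 and 335. Leaving out each library in turn gave 307 to 1790 higher, 200 to 1847 lower, 1 to 10 of the ATP synthase genes higher, and 0.79 to 0.91 for their median log2 fold change. That median was 1.32 with library totals, 1.27 and 1.28 with limma on TPM, 0.97 with the offset for GC content and length, and 0.98 with the offset and the replicate block. The shift with library totals and TPM is that of all genes (0.45, 0.39 and 0.42). *MIR1* was at -0.01 with the offset, without and with the block, and with library totals *MAS1* was at 0.04, *TIM23* at 0.05 and *MGE1* at -0.01. The cause was not tested.

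The correlation of the replicate differences between strains was 0.00146. This cannot show whether libraries of the same number share a culture or a preparation, which is not stated. The replicate block gave 1089 genes higher, 1040 lower, 8 of the ATP synthase genes (18.5% of all genes called higher) and a median of 0.88, and called 4 of 4 other nuclear subunits. There were 2 libraries per strain, and 3 of the 4 libraries held reads of *LEU2*, whose part in the results was not tested.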
